A study of Bos taurus with 44 samples.

Results

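Caruncular endometrium of cattle labelled SCNT was compared with that of cattle labelled AI on 4 of the 44 arrays of the series. These 4 arrays were chosen by their labels: the area is caruncular, and pools named NT (SCNT) were hybridised against pools named IAJ (AI). SCNT is somatic cell nuclear transfer, in which an embryo is made from the nucleus of a body cell, and AI is artificial insemination. SCNT pool 1 met AI pool 2 on 2 arrays, and SCNT pool 2 met AI pool 1 on the other 2, each time once in either dye. The arrays of a swapped pair were averaged, so that each probe had 2 values, 1 per pool pair. No label gives the number of animals in a pool, their breed or the day of pregnancy.

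Of the other arrays, 30 served as points of reference and the 10 of IVF-ET in intercaruncular tissue were not used. On 10 caruncular arrays, 5 animals named FIV (IVF-ET, in vitro fertilisation with embryo transfer) met 5 AI animals named IAT, a name apart from IAJ. On 20 intercaruncular arrays, SCNT and IAJ animals each met animals named CJ, described in the labels by the word cycle. Total RNA of frozen tissue was copied from oligo-dT primers and coupled to Cy3 or Cy5. The values are log2 ratios of both dyes for 13824 probes, of which 8645 name 1 gene (8073 different symbols).

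Caruncles are the raised, gland-free areas of the ruminant uterine lining to which the placenta attaches, while glands open between them. The caruncular surface epithelium meets the trophoblast, the outer layer of the conceptus, which secretes interferon tau, pregnancy-associated glycoproteins and Kunitz-type protease inhibitors. Interferon tau induces antiviral genes in the endometrium and keeps the oxytocin receptor low, which maintains the corpus luteum. Ratios carry no level, so the caruncular label could not be checked against defining markers. In these whole-tissue samples, fewer cells of a type and less RNA per cell cannot be told apart.

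The 4 arrays had a narrow spread of log2 ratios (SD 0.273 to 0.3, against 0.221 to 0.62 over the 44 arrays), and r between both adjacent spots was 0.587 to 0.695 across probes. No value was missing on the 4 arrays. Turned to SCNT minus AI, the swapped arrays of the same pools correlated with r of 0.34 and 0.32 across probes, which are not independent replicates. Arrays of different pools with the same dyes reached 0.40 and 0.36, and arrays of different pools with swapped dyes 0.11 and 0.10. The averages of both pool pairs correlated with r of 0.36. No label says which dye is the numerator, and all signs below take Cy5 as numerator. Its likely basis is the intercaruncular SCNT minus CJ difference: ISG15, an interferon-induced gene, then stands at 4.65 and OXTR, the oxytocin receptor, at -3.54, the direction known for early ruminant pregnancy. With Cy3 as numerator every sign turns.

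With 2 pool-pair values against 0, 0 probes passed an adjusted p of 0.05 in limma (lowest adjusted p 0.0753), and 0 with a robust variance prior or without moderation. At an unadjusted p under 0.05, 872 probes were higher (6.31%) and 872 lower (6.31%) in SCNT. A total of 31 probes had an adjusted p under 0.1. With 2 values, an exact two-sided permutation of signs cannot give a p below 0.5. The p-values of this test rest on the gap between both pool pairs (residual df 1) and more on a spread shared by all probes (prior df 4.27). They do not measure the spread between animals. The same sign on all 4 arrays was seen for 1541 probes that were higher (11.1%) and 1461 that were lower (10.6%). Of these, 112 (0.81%) and 169 (1.22%) had a mean difference of at least 0.5 on the log2 scale, which is 1.41-fold. The genes below are therefore described by their values on the 4 arrays, and none of them passed the test on the pool pairs.

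Fits that take their spread from more values gave calls, but they hold no further pools for this comparison. They enter the swapped arrays of a pool pair, which share both pools, as separate values. The correlation that links these arrays is low (0.1 for each shared pool over 14 arrays, 0.26 in the block fit). Over the 14 arrays, pools are also given a spread drawn largely from single animals. Their calls, here and wherever a gene is said to pass in them, therefore rest in part on technical replication and do not replace the test on the pool pairs. All 14 caruncular arrays together gave 213 probes (97 higher, 0.702%, and 116 lower, 0.839%), the 4 arrays with the pool pair as a random block 148 (61 higher, 0.441%, and 87 lower, 0.629%), and the 4 arrays with the 20 intercaruncular ones 14 (10 higher, 0.0723%, and 4 lower, 0.0289%). Both of the first fits called 86 of the same probes, and 10 probes passed in all 3. These were LOC404105 (2.40), TKDP1 (2.24), UQCR11 (0.80), ATP5PO (0.54), MRPL55 (0.52) and an unnamed probe (0.54) on the higher side, and LAT (-1.20), BOLA-DRB3 (-1.05), CCDC65 (-0.68) and AFAP1L2 (-0.59) on the lower side. Without either pool pair the fit over the 14 arrays rests on 1 pool pair, and its calls were in part other probes than those of the full fit. Without a single IVF-ET or AI animal it called between 143 and 489 probes. The highest of these counts came without IVF-ET animal 3, and 382 came without AI animal 1.

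On the higher side, FBP1 and 9 other genes had the smallest p among those with the same sign on all 4 arrays. FBP1, a fructose bisphosphatase of gluconeogenesis, lay at 0.91 and 1.02 on the arrays of pool pair 1 and at 1.31 and 1.30 on those of pool pair 2 (SCNT in Cy5, then in Cy3, as in all sentences below). Its mean was 1.13 ± 0.11 (SE, n = 2 pool pairs), or 2.19-fold, with a limma adjusted p of 0.0907 and a range of 0.00137 to 0.165 over the 4 fits. Every SE, here and after each ± below, is limma's moderated one, drawn toward a spread shared by all probes. Where the pool pairs lie far apart, as for TKDP1 below, it is smaller than the SE of both values alone. Where they lie close together it is larger. The values of FBP1 in both pool pairs did not overlap.

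UQCR11, a small subunit of respiratory complex III, lay at 1.00, 0.53, 0.98 and 0.68, with a mean of 0.80 ± 0.08 (adjusted p 0.0997, range 0.000446 to 0.0997). FST, follistatin, which binds activin, lay at 0.81, 0.85, 0.68 and 0.83, with a mean of 0.79 ± 0.08 (adjusted p 0.0997, range 0.0167 to 0.803). COL1A2, a chain of type I collagen, lay at 0.97, 0.71, 0.77 and 0.67, with a mean of 0.78 ± 0.09 (adjusted p 0.0999, range 0.0167 to 1). In these 3 genes the arrays of both pool pairs overlapped, and the lowest of all 12 values was 0.53.

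The other genes of this rule on the higher side were GJB2, the gap junction protein connexin 26 (0.89; its other probe 0.54), PTN, the growth factor pleiotrophin (0.84), TFRC, the transferrin receptor (0.75), F10, coagulation factor X (0.74), FAM13B (0.74) and CA2, a carbonic anhydrase (0.68). Their SEs were 0.08 to 0.10 and their adjusted p 0.0999 to 0.114.

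On the lower side, ADAMDEC1 and 9 other genes had the smallest p by the same rule. ADAMDEC1, a secreted metalloprotease of mononuclear phagocytes, lay at -2.02, -1.84, -1.59 and -1.59. Its mean of -1.76 ± 0.11 was the most negative of all named genes, 3.38-fold lower in SCNT (adjusted p 0.0753, range 0.00601 to 0.452). Both arrays of pool pair 1 lay below both arrays of pool pair 2.

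IL6R, the interleukin-6 receptor, lay at -1.17, -1.01, -1.56 and -1.30 (mean -1.26 ± 0.11, adjusted p 0.0753, range 0.00673 to 0.277). SLC27A6, a fatty acid transport protein, lay at -1.42, -1.11, -1.17 and -0.82 (mean -1.13 ± 0.10, adjusted p 0.0753, range 0.0017 to 0.891). AQP4, a water channel, lay at -0.83, -0.90, -0.84 and -1.09 (mean -0.91 ± 0.08, adjusted p 0.0805, range 0.000446 to 0.335). IL6R was lower in pool pair 2 than in pool pair 1, and the pairs overlapped for SLC27A6 and AQP4.

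RALGPS1, an exchange factor of Ral GTPases, had a mean of -0.98, BPIFB1, a secreted protein of mucosal surfaces, -1.01, GM2A, the lysosomal activator of ganglioside breakdown, -0.91, and PTI, a Kunitz-type trypsin inhibitor, -0.91. Their adjusted p was 0.0753 to 0.0881. The other genes of this rule were BOLA-DRB3 and BOLA-NC1, described below with antigen presentation.

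**Figure D1:**
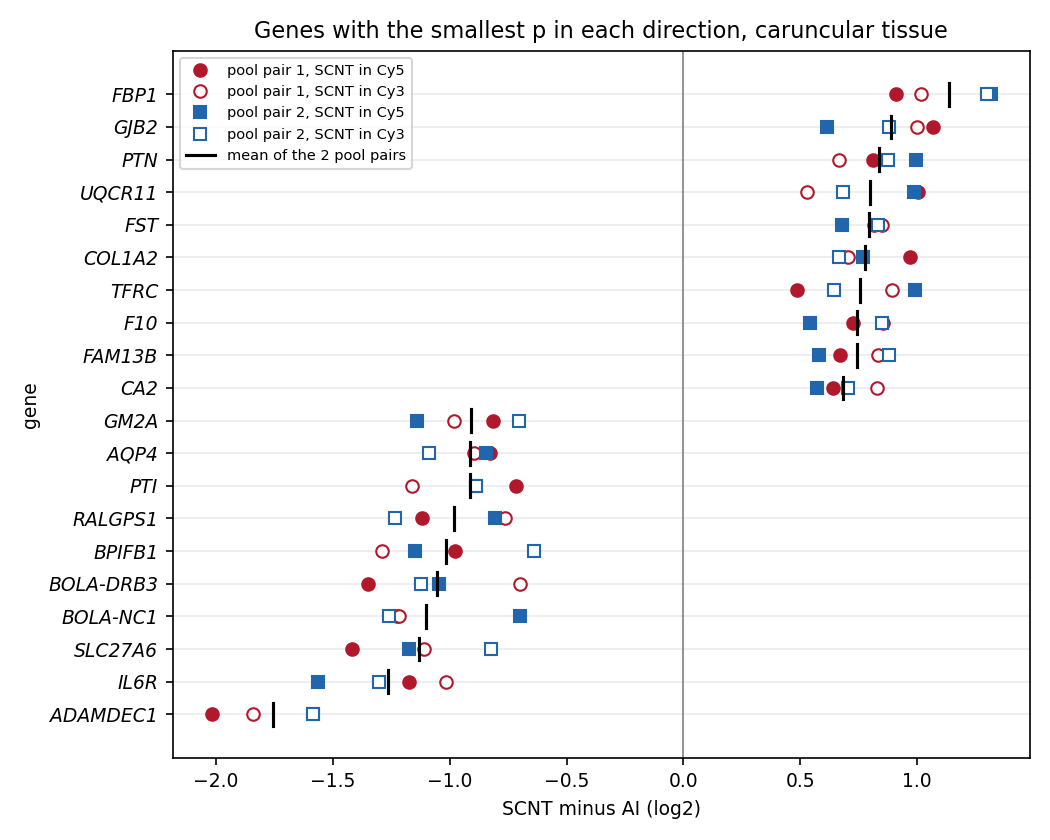
SCNT minus AI in caruncular tissue (log2, horizontal axis) for the 10 genes with the smallest p in each direction among those with the same sign on all 4 arrays. Circles are pool pair 1, squares pool pair 2, and the bar is the mean of both pairs. Filled symbols are arrays with SCNT in Cy5, open symbols those with SCNT in Cy3. FBP1 has the highest mean (1.13) and ADAMDEC1 the lowest (-1.76). By the rule of choice, no gene has an array on the other side of 0.

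Genes of oxidative phosphorylation, the mitochondrial chain that makes ATP, lay together on the SCNT side. Of 70 measured subunits of complexes I to V, 55 were higher and 0 lower on all 4 arrays, against 12.2% higher and 11.7% lower of all 8073 named genes. Their median difference was 0.32, and the median of all named genes was 0.00. The list medians of the 4 arrays were 0.34, 0.30, 0.31 and 0.34, so neither pool pair nor dye set them apart. No subunit passed the test on the pool pairs, and 11 had a mean of at least 0.5 with 1 sign on all 4 arrays (named genes: 0.929% higher, 1.33% lower). In the fit over 14 arrays 14 passed, all on the higher side (named genes: 0.756% higher), and with the block 9 (0.495%).

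By complex, 29 of 35 subunits of complex I, the NADH dehydrogenase, were higher on all 4 arrays (median 0.29), as were 3 of 4 of complex II (0.23) and 7 of 9 of complex III (0.39). The same held for 7 of 10 of complex IV, the cytochrome c oxidase (0.34), and 9 of 12 of ATP synthase (0.44). The subunits with the smallest p were, for complexes I and II, NDUFB6 (0.55), NDUFA4 (0.55), NDUFA2 (0.47) and NDUFAB1 (0.47). Those of complexes III to V were UQCR11 (0.80), UQCRB (0.58), COX7A2 (0.57) and ATP5PO (0.54). ATP5PO lay at 0.55, 0.49, 0.57 and 0.57, and NDUFB6 at 0.51, 0.64, 0.66 and 0.41, and the pairs lay close together. NDUFB1, UQCRFS1 and COX7A1 had means just below 0 (-0.01, -0.02 and -0.03), with arrays on both sides of 0, and the other 2 probes of UQCRFS1 lay above it.

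Ribosomal protein genes lay on the same side by less. Of 63 measured mitochondrial ribosomal proteins, 23 were higher and 0 lower on all 4 arrays (named genes: 12.2% higher, 11.7% lower). Their median was 0.13, and MRPL55 (0.52) and MRPL32 (0.48) led them. MRPL55 lay at 0.78 and 0.83 with SCNT in Cy5 and at 0.27 and 0.19 with SCNT in Cy3, so its dyes differed by more than its pools. Of 56 cytosolic ribosomal proteins, 23 were higher and 1 lower (median 0.19), with RPL27 (0.42) and RPL13 (0.35) among them.

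In glycolysis and gluconeogenesis 9 of 18 genes were higher and 2 lower on all 4 arrays (median 0.21, named genes: 12.2% higher, 11.7% lower). Beside FBP1, LDHB, a lactate dehydrogenase subunit, lay at 0.43, 0.34, 0.38 and 0.28 (mean 0.36). The 2 lower genes encode regulatory enzymes: PFKFB3, which makes the activator of phosphofructokinase (-0.73), and PDK4, a kinase that inhibits pyruvate dehydrogenase (-0.47; its other probe -0.49). Of 21 genes of the citric acid cycle, 8 were higher and 2 lower (median 0.13), with MDH2, a malate dehydrogenase, at 0.40.

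**Figure D2:**
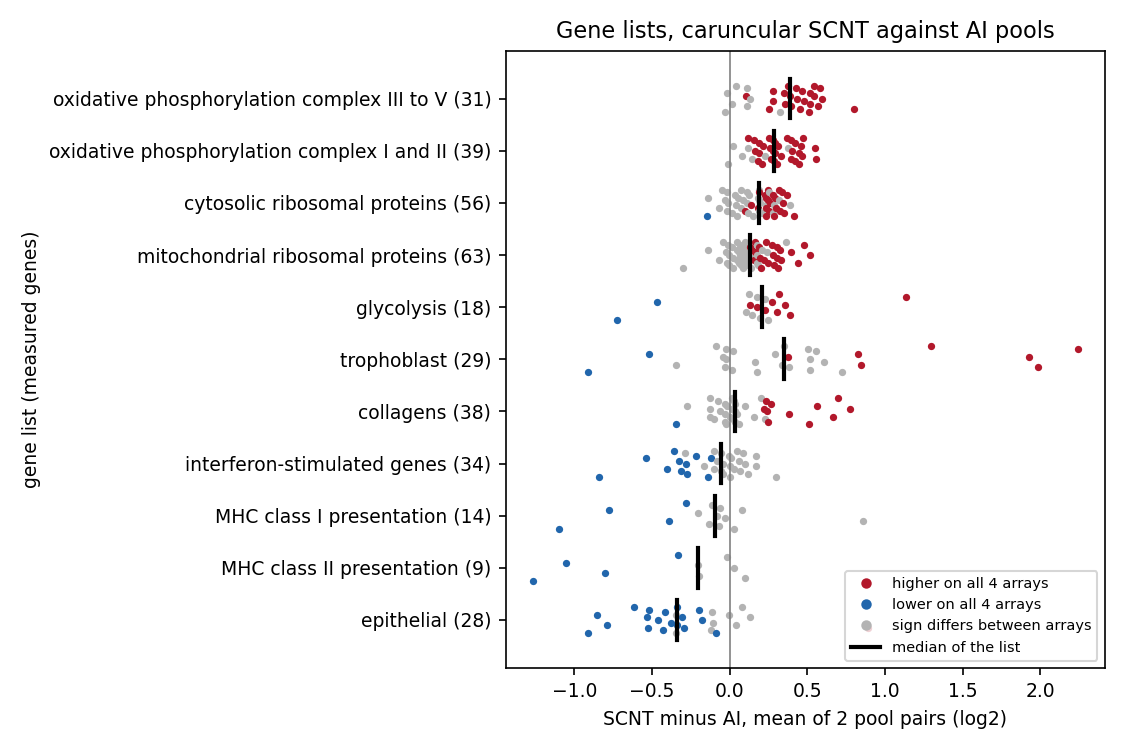
SCNT minus AI (log2, mean of the 2 pool pairs) for every measured gene of 11 lists, with the number of measured genes in brackets. Red points were higher and blue points lower on all 4 arrays, grey points differed in sign, and the bar is the list's median, which is highest for complexes III to V (0.39) and lowest for epithelial genes (-0.34).

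Epithelial genes lay on the lower side. Of 28 measured markers, 18 were lower on all 4 arrays and 1, GJB2, was higher (median -0.34, named genes: 11.7% lower, 12.2% higher). Of the 18 lower ones, 7 had a mean of -0.5 or less (named genes: 1.33%). The list medians of the 4 arrays were -0.18, -0.13, -0.39 and -0.39, lower in pool pair 2. ST14, the membrane protease matriptase, lay at -0.61, -0.91, -1.01 and -1.11 (mean -0.91 ± 0.10, adjusted p 0.101, range 0.0167 to 0.101). CLDN1, a tight junction protein, lay at -0.72, -0.30, -1.40 and -0.996 (mean -0.85 ± 0.17, adjusted p 0.184, range 0.00632 to 0.184). For both genes all arrays were below 0 and pool pair 2 lay lower.

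MUC1, a surface mucin, had a mean of -0.79, CDH1, the adhesion protein E-cadherin, -0.62, TJP1, a junction scaffold, -0.53, EPCAM, an epithelial adhesion protein, -0.52, and ESRP1, an epithelial splicing factor, -0.52. The keratins were near 0 or mixed: KRT19 had a mean of -0.10, KRT18 of -0.12 and KRT8 of -0.34, with arrays on both sides of 0. Of the list, ST14 and CLDN1 passed in the fit over 14 arrays (named genes: 0.929% lower) and with the block ST14 on the lower side (0.632%) and GJB2 on the higher (0.495%). PIGR, the receptor that carries antibodies through epithelia, lay at -1.61, -1.19, -0.96 and -0.63 (mean -1.10 ± 0.15, adjusted p 0.127, range 0.00336 to 0.127).

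Among genes that present antigen on MHC class II, 4 of 9 were lower and 0 higher on all 4 arrays (median -0.21). The shares of all named genes were 11.7% lower and 12.2% higher. The list medians of the 4 arrays were 0.01, -0.34, -0.11 and -0.44, lower with SCNT in Cy3. CD74, the invariant chain, lay at -0.94, -0.89, -1.59 and -1.63 (mean -1.26 ± 0.17, adjusted p 0.127, range 0.0197 to 0.127). BOLA-DRB3, a class II beta chain, lay at -1.35, -0.70, -1.05 and -1.12 (mean -1.05 ± 0.08, adjusted p 0.0753, range 0.00176 to 0.0753), and its other 2 probes at -1.20 and -0.01. BOLA-DRA, the partner alpha chain, had a mean of -0.80, and BOLA-DMA, which helps load peptides, of -0.33. CD74, BOLA-DRA and BOLA-DRB3 passed in the fit over 14 arrays (named genes: 0.929% lower), while BOLA-DMB, BOLA-DOA, BOLA-DYB, CTSS and IFI30 had arrays on both sides of 0. BOLA genes are similar in sequence, and the probes were not checked for sharing transcripts.

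For MHC class I, 4 of 14 genes were lower and 0 higher on all 4 arrays (median -0.10, named genes: 11.7% lower, 12.2% higher). The list medians of the 4 arrays were -0.18, -0.06, -0.25 and -0.18. BOLA-NC1, a non-classical class I gene, lay at -1.22, -1.22, -0.70 and -1.26 (mean -1.10 ± 0.10, adjusted p 0.0753, range 0.0167 to 0.311), and its other 2 probes at -0.90 and 0.03. B2M, the light chain of class I molecules, lay at -1.21, -0.88, -0.27 and -0.75 (mean -0.78). TAPBP and TAP1, which load peptides, were lower by less (-0.39 and -0.28). The probe annotated only as BOLA lay at 1.42 and 2.09 in pool pair 1 and at 0.05 and -0.12 in pool pair 2.

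Markers of leukocytes that carry MHC class II had small medians that differed by pool pair. Of 18 macrophage and dendritic cell genes, 2 were lower on all 4 arrays, LAPTM5 (-0.52) and FCGR3A (-0.29), and 0 were higher (median -0.01). Among all named genes 11.7% were lower and 12.2% higher. The list medians of the 4 arrays were 0.16, 0.06, -0.12 and -0.18, lower in pool pair 2. Of the 4 class II genes that were lower on all arrays, CD74 and BOLA-DRA were also lower in pool pair 2 than in pool pair 1. The probe that stands for BOLA-DRB3 was nearly equal in pool pairs 1 and 2 (-1.02 and -1.08). Both other probes of BOLA-DRB3 were lower in pool pair 2, at -0.82 and -1.585 and at 0.34 and -0.36. BOLA-DMA was not lower in pool pair 2 (-0.35 and -0.31). C1QC, a complement subunit made by macrophages, and CTSS, a lysosomal protease, both had means of -0.20, and CD14, CD68 and ITGAM of -0.02, 0.00 and 0.00. Of 9 B and plasma cell genes, BLNK, a B-cell signalling adaptor (-0.67), and IGHM (-0.26) were lower and JCHAIN higher (0.59). JCHAIN lay at 1.25 and 0.96 with SCNT in Cy3 and at 0.10 and 0.07 with SCNT in Cy5. Of 19 T and NK cell genes, 5 were lower and 1 higher (median -0.09). LAT, an adaptor of the T-cell receptor that is not in that list, lay at -1.07, -0.73, -1.66 and -1.32 (mean -1.20), but its other probe had a mean of 0.01. The part of cell composition in the values of the presentation genes was not tested.

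Of 34 measured interferon-stimulated genes, 0 were higher and 11 lower on all 4 arrays (median -0.06, named genes: 12.2% higher, 11.7% lower). The mean over both pairs was above 0 for 13 of them and below 0 for 21. ISG15, a ubiquitin-like protein, lay at 0.05, 0.09, -0.19 and 0.04 (mean 0.00), and RSAD2, the antiviral enzyme viperin, at 0.04, 0.12, -0.15 and -0.01 (mean 0.00). The arrays of both genes lay on both sides of 0. IFI6, a mitochondrial interferon-induced protein, lay at -1.22, -0.94, -0.40 and -0.79 (mean -0.84 ± 0.13, adjusted p 0.133, range 0.0143 to 1). MX2, an antiviral GTPase, lay at -0.49, -0.67, -0.60 and -0.39 (mean -0.54 ± 0.08, adjusted p 0.13, range 0.054 to 1). MX1, its paralogue, lay at 0.06 and 0.05 with SCNT in Cy5 and at -0.38 and -0.37 with SCNT in Cy3. PARP9 (-0.40), IRF1 (-0.36), UBA7 (-0.33), IRF7 (-0.31) and IRF9 (-0.27) were among the other lower genes.

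Genes that trophoblast expresses were far higher in pool pair 1 than in pool pair 2. Of 29 measured genes of this list, 7 were higher and 2 lower on all 4 arrays (named genes: 12.2% higher, 11.7% lower). The list medians were 0.87 and 1.04 in pool pair 1 and -0.07 and -0.08 in pool pair 2. TKDP1, a trophoblast Kunitz domain protein, lay at 3.24, 2.76, 1.88 and 1.08 (mean 2.24 ± 0.34, 4.73-fold, adjusted p 0.127, range 0.0052 to 0.127). TKDP4 lay at 3.15, 2.79, 1.39 and 0.62 (mean 1.99), and PAG2, a pregnancy-associated glycoprotein, at 2.84, 2.79, 1.25 and 0.84 (mean 1.93). These 3 genes were above 0 on each array, and their arrays of pool pair 1 lay above those of pool pair 2.

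IFNT2, an interferon tau, lay at 1.999, 2.26, 0.51 and 0.42 (mean 1.30 ± 0.37, adjusted p 0.285, range 0.131 to 0.285). HAND1, a transcription factor of trophoblast, had a mean of 0.83, PAG8 of 0.85 and DLX3 of 0.38, each above 0 on all arrays. PAG8 was near 0 in pool pair 2 (0.05 and 0.08), against 1.55 and 1.71 in pool pair 1. Other placental genes had opposite signs in the pairs. PAG9 lay at 1.20 and 1.61 in pool pair 1 and at -0.65 and -0.64 in pool pair 2. PAG19, PRP1, PRP4 and PAG7 did the same, with means in pool pair 2 of -0.48, -0.55, -0.57 and -0.36. The mean over both pairs (0.38 for PAG9) describes neither of them.

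LOC404105, listed by locus number only in the RefSeq table of the ARS-UCD2.0 assembly, had the highest mean of all named genes. It lay at 3.03, 3.10, 1.55 and 1.92 (mean 2.40 ± 0.30, 5.28-fold, adjusted p 0.114, range 0.00501 to 0.114). In that table it stands on the chromosome of TKDP1, TKDP4 and PTI, within a stretch of 12 protein-coding genes that also holds these 3. PTI lay at -0.72, -1.16, -0.89 and -0.89, so its arrays were all below 0, while those of LOC404105, TKDP1 and TKDP4 were above. Together with DLX5 (-0.52) it was the lower side of the trophoblast list. Similar sequences among the PAG, TKDP and PRP families may share probes, which was not checked.

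**Figure D3:**
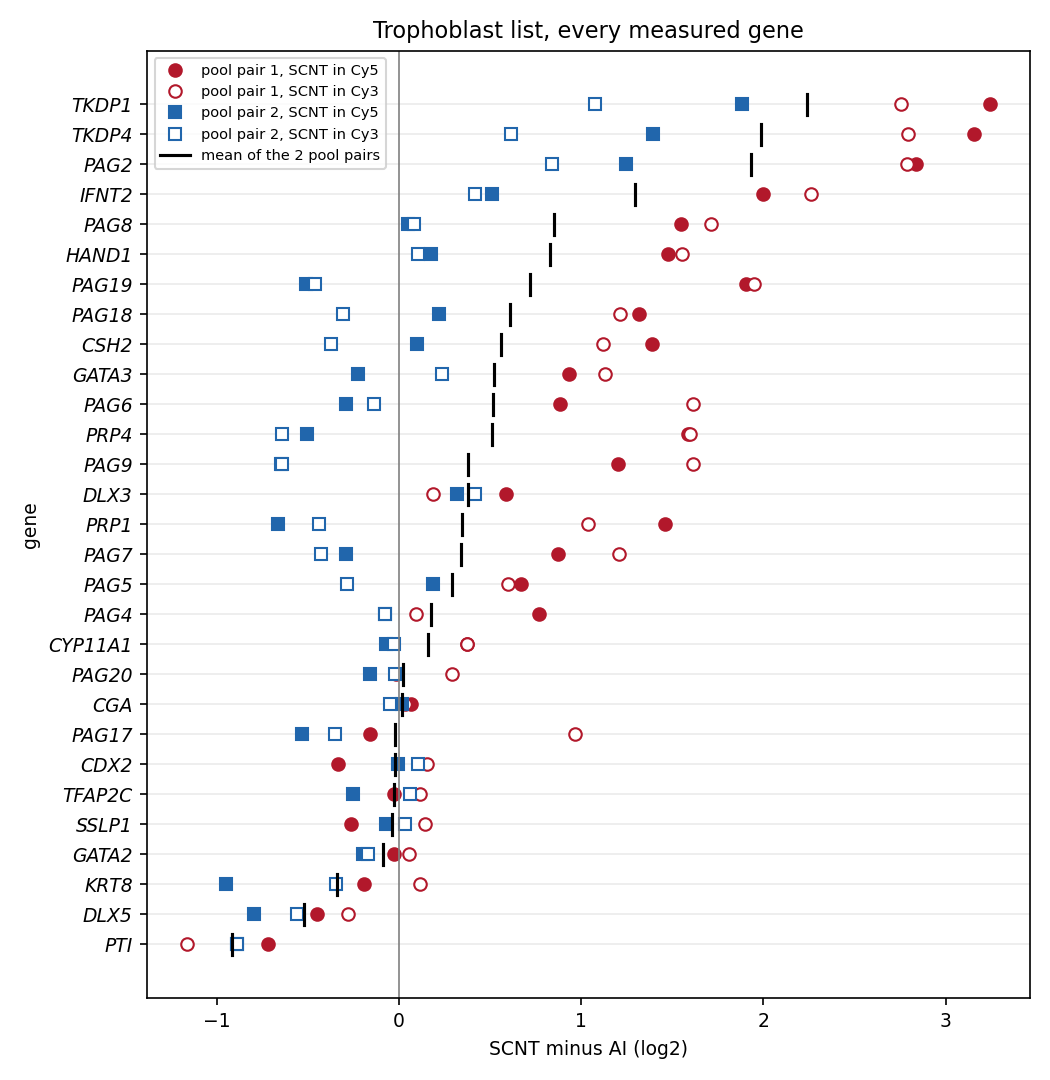
SCNT minus AI (log2, horizontal axis) on each of the 4 arrays for every measured gene of the trophoblast list. Circles (pool pair 1) lie to the right of squares (pool pair 2) for most genes: for TKDP1 at 3.24 and 2.76 against 1.88 and 1.08, and for PAG9 at 1.20 and 1.61 against -0.65 and -0.64.

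The medians of both pool pairs stood as follows. In pool pair 2, where the trophoblast median was -0.08, the median of oxidative phosphorylation was 0.33 and that of epithelial genes -0.42. In pool pair 1, with a trophoblast median of 1.03, they were 0.29 and -0.21. Single trophoblast genes differed in pool pair 2 as well, in both directions, and the part of trophoblast RNA in the values of other genes was not tested.

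**Figure D4:**
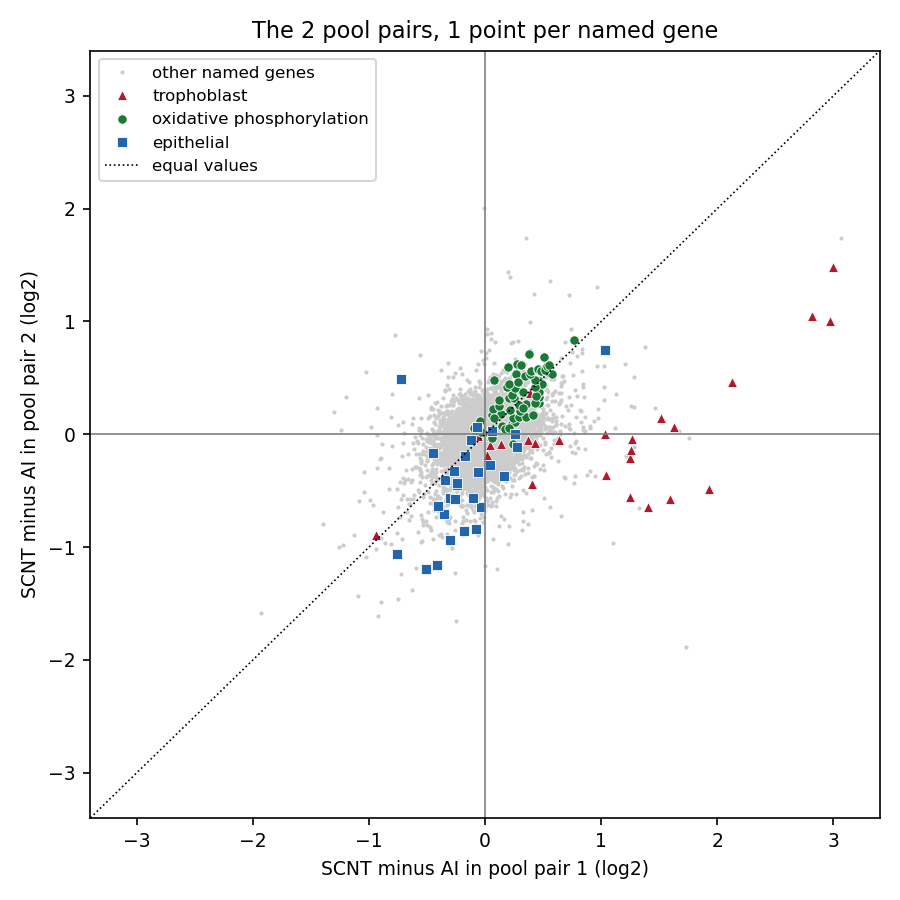
SCNT minus AI (log2) in pool pair 1 (horizontal axis) and pool pair 2 (vertical axis), 1 point per named gene. Genes of oxidative phosphorylation (green circles) lie near the dotted line of equal values with medians of 0.29 and 0.33, whereas trophoblast genes (red triangles) lie to the right of it with medians of 1.03 and -0.08.

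Collagens and collagen-processing enzymes had 11 higher and 1 lower of 38 on all 4 arrays (median 0.03, named genes: 12.2% higher, 11.7% lower). Beside COL1A2 these were led by COL27A1 (0.70), COL6A3 (0.66) and COL1A1 (0.56), the other chain of type I collagen, at 0.69, 0.89, 0.27 and 0.41. COL3A1, the type III collagen, lay at 0.08, 0.09, -0.05 and 0.02, on both sides of 0. The basement membrane collagen COL4A2 was the lower one (-0.34). Of 53 other matrix proteins and proteases, 11 were higher and 9 lower, with FBN2, a fibrillin, at 0.59 and THBS1, thrombospondin 1, at -0.73. THBS1 lay at -0.65, -0.81, -0.64 and -0.82 (adjusted p 0.0999, range 0.0167 to 0.33). Of 15 stromal fibroblast markers 5 were higher and 1 lower (median 0.15), and of 20 smooth muscle markers 2 were higher and 0 lower (median 0.05).

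Growth factor genes went both ways. Of 30 genes of TGF-beta, activin and BMP signalling, 9 were higher and 5 lower on all 4 arrays (named genes: 12.2% higher, 11.7% lower). FST was highest and LTBP3, a latent TGF-beta binding protein, lowest (-0.59). Of 23 Wnt genes, 5 were higher and 4 lower. The secreted inhibitors SFRP2 (0.63) and SFRP1 (0.58) were on the higher side and SFRP4 (-0.45), of the same family, on the lower. DKK1, another Wnt inhibitor, lay at -0.29, -0.17, -0.63 and -0.27 (mean -0.34). MSX1, a transcription factor of the uterine epithelium, had a mean of -0.64, but its other probe one of 0.06. IGFBP6 (0.48) was higher and IGF1R, the IGF-1 receptor, lower (-0.55).

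Of 15 prostaglandin genes 1 was higher and 4 lower on all 4 arrays (median -0.04). Of 23 genes of steroid and oxytocin signalling 4 were higher and 3 lower (median -0.06, named genes: 12.2% higher, 11.7% lower). HPGD, which inactivates prostaglandins, lay at -0.79, -0.67, -1.42 and -1.05 (mean -0.98 ± 0.14, adjusted p 0.127, range 0.024 to 1). PTGES, a prostaglandin E synthase, lay at -0.75, -0.90, -0.52 and -0.45 (mean -0.66). PTGS2, the inducible cyclooxygenase, had a mean of 0.02, and its other probe one of 0.70. PGR, the progesterone receptor, lay at -0.32, -0.32, -0.14 and -0.18 (mean -0.24), ESR1 had a mean of -0.21, and ESR2, the other oestrogen receptor, one of -0.52. OXTR lay at -0.42, -0.69, 0.25 and -0.20 (mean -0.26), with arrays on both sides of 0.

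Of 27 genes for uterine secreted proteins, 6 were higher and 7 lower on all 4 arrays (median -0.03, named genes: 12.2% higher, 11.7% lower). DEFB, a defensin probe (0.90), CST6, a cystatin (0.69), and S100A2 (0.55) were higher. SERPINA14, the uterine serpin of the glands, lay at 0.00 and -0.50 in pool pair 1 and at -1.61 and -1.71 in pool pair 2, which did not overlap (mean -0.95 ± 0.32, adjusted p 0.324, range 0.187 to 1).

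Regulators of chromatin and DNA methylation had 11 lower and 1 higher of 33 (median -0.07), led by DNMT3A, a DNA methyltransferase (-0.51), and CREBBP, an acetyltransferase (-0.41). For this and the next lists, the shares of all named genes were 11.7% lower and 12.2% higher on all 4 arrays. Stress and growth arrest genes had 10 lower and 7 higher of 49, with DUSP1, an immediate-early phosphatase, lowest (-0.62). Of 55 genes of the cell cycle, 11 were higher and 3 lower (median 0.09), with STMN1, which destabilises microtubules, at 0.64. Of 35 growth factor and vascular genes, 3 were higher and 8 lower, with CCN2, a matricellular protein, at -0.65. Of 20 endothelial genes, 2 were lower and 0 higher, and of 5 red blood cell genes and 11 neutrophil genes at most 1 had the same sign on all arrays in either direction.

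Whether SCNT and IVF-ET differ in their distance from AI was tested on the 14 caruncular arrays. The difference of both differences passed for 225 probes (102 higher, 0.738%, and 123 lower, 0.89%), with 67 and 83 named genes (0.83% and 1.03%). This fit too enters the swapped arrays of a pool pair as separate values, so its calls carry the limit given above. The comparison sets pools against single animals and IAJ against IAT controls, and the part of either in it cannot be told apart from that of the embryo technology. Without pool pair 1 it gave 82 probes and without pool pair 2 87. Without IVF-ET animals 1 or 2 it gave 134 and 128, and without AI animals 2 or 3 138 and 135. IVF-ET minus AI itself passed for 0 probes on the higher and 2 on the lower side (0.0145%) in the same fit.

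Oxidative phosphorylation had 16 of its 70 genes among those that differed, all with SCNT higher. The list's median was 0.32 in SCNT minus AI and -0.06 in IVF-ET minus AI. FBP1 stood at 1.13 after SCNT and at -0.44 after IVF-ET (difference 1.58 ± 0.17, limma adjusted p 0.000622), UQCR11 at 0.80 and -0.14 (0.943 ± 0.105, adjusted p 0.000622). CA2 stood at 0.68 and -0.74 (1.42 ± 0.224, adjusted p 0.0074) and FABP3, a fatty acid-binding protein, at 0.96 and -0.85 (1.81 ± 0.374, adjusted p 0.0241). The mitochondrial ribosomal list had 5 higher of 63.

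On the lower side the largest difference was that of ADAMDEC1, at -1.76 after SCNT and 0.655 after IVF-ET (-2.41 ± 0.431, adjusted p 0.0129). GUCY1B1, a subunit of the nitric oxide receptor guanylate cyclase, stood at -1.11 and 0.31 (-1.42 ± 0.187, adjusted p 0.00188). HPGD stood at -0.98 and 0.31 (-1.29 ± 0.274, adjusted p 0.0272). Of the epithelial list ST14, CLDN1 and ESRP1 differed, and of MHC class II BOLA-DRB3 (-1.04 ± 0.165, adjusted p 0.0074). TKDP1 stood at 2.24 and 0.26 (1.98 ± 0.413, adjusted p 0.0251) and PAG2 at 1.93 and 0.31 (1.62 ± 0.419, adjusted p 0.0653). PAG9 had the higher value after IVF-ET (0.38 and 0.93). The trophoblast list had 1 gene higher and 1 lower of 29 in this test (named genes: 0.83% and 1.03%). Its median was 0.35 in SCNT minus AI (1.03 and -0.08 in the pool pairs) and 0.20 in IVF-ET minus AI.

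In intercaruncular tissue SCNT and AI can be set against each other only through CJ animals, on 20 arrays of individual animals. The labels do not say whether the pools hold RNA of the same animals, so both areas may share animals and are given side by side. There, 53 probes were higher and 11 lower in SCNT (0.383% and 0.0796%). The difference between the areas passed for 0 probes in limma (lowest adjusted p 0.687), with 361 higher (2.61%) and 338 lower (2.45%) at an unadjusted p under 0.05, and for 0 with no correlation between arrays. Without pool pair 2 it passed for 3 probes and without SCNT animal 4 for 1.

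Values that lay close together in both areas were those of UQCR11 (0.80 caruncular, 0.87 intercaruncular), FBP1 (1.13 and 1.28), TFRC (0.75 and 0.75), NDUFB6 (0.55 and 0.55) and LTBP3 (-0.59 and -0.61). The median of oxidative phosphorylation was 0.32 and 0.31. PLET1, a glycoprotein found on progenitor cells of placenta and epithelium, lay at 0.02, 0.38, 1.28 and 1.60 on the caruncular arrays (mean 0.82 ± 0.28) and had a difference of 3.65 ± 0.47 in intercaruncular tissue. LY6G6C, a small surface protein, stood at 0.98 and 2.74, and FABP3 at 0.96 and 2.98. PLET1, LY6G6C and FABP3 were thus higher in SCNT in both areas, with values that lay far apart.

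For other genes the values lay apart as well. ISG15 stood at 0.00 and 1.75 and RSAD2 at 0.00 and 1.96. Signs were opposite for MX2 at -0.54 and 1.11, B2M at -0.78 and 0.72, and HPGD at -0.98 and 0.79. The median of interferon-stimulated genes was -0.06 in caruncular and 0.39 in intercaruncular tissue, and -0.18 in IVF-ET minus AI. COL1A2 stood at 0.78 and -0.94, COL6A3 at 0.66 and -1.27, COL1A1 at 0.56 and -1.10, and SNAI2, a mesenchymal transcription factor, at 0.28 and -0.48. None of these differences between the areas passed, and the intercaruncular SEs of ISG15, RSAD2 and COL1A2 were 0.73, 0.80 and 0.44.

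**Figure D5:**
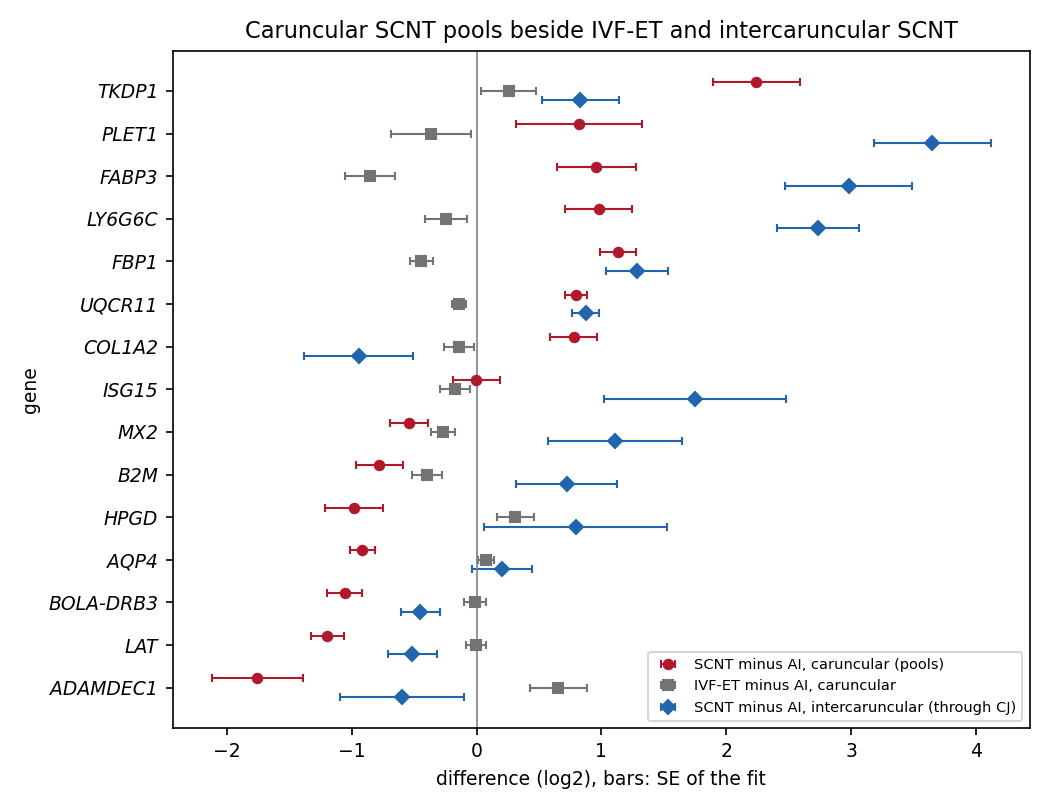
Differences (log2, horizontal axis) of 15 genes for SCNT minus AI in caruncular pools (red circles), IVF-ET minus AI in caruncular tissue (grey squares) and SCNT minus AI in intercaruncular tissue through CJ animals (blue diamonds). Bars are SEs, for the red circles and grey squares from the fit over 14 caruncular arrays. UQCR11 has like values in both SCNT comparisons (0.80 and 0.87), while PLET1 (0.82 and 3.65) and ISG15 (0.00 and 1.75) lie further apart.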

How the data were processed

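Each value deposited by the authors is, judged from the values, a log2 ratio of a spot's dyes. All 331 values below -4 (100%) fell on log2 of a 4-decimal ratio. How the authors corrected background and normalized: not given in the sources used here; nothing further was normalized. Platform annotation and a RefSeq table named the probes (105 name several genes, 5074 none). Spots of a probe were averaged, ratios turned to SCNT minus AI and swapped arrays averaged. Both pool-pair values were tested against 0 with limma 3.58.1 in R 4.3.3 (residual df 1, prior df 4.27), adjusted by Benjamini-Hochberg over 13824 probes, threshold 0.05. Fits over 14 and 24 arrays had dye as a term and a shared correlation (0.1 and 0.12) between arrays of 1 animal or pool; the block fit used 0.26. Pool numbers in the labels pair no pools: pairs are those hybridised together.

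The members and gene lists were chosen with earlier results of these data known. Genes were named by rule: the 10 with the smallest p per direction with 1 sign on all 4 arrays, up to 4 per list by p, those leading the difference tests, and genes of pregnancy recognition. Other genes in the text were chosen after their values were seen. For a gene with several probes, 1 stands for it, and other probes are given where they differ. Scripts were tested on simulated data.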

Additional observations from a re-analysis of the deposited data

Results flagged for a closer look

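Among the 195 named genes, 43 differed between SCNT minus AI and IVF-ET minus AI in caruncular tissue by the test of the difference itself (limma, 14 arrays, adjusted p between 0.000622 and 0.048), 23 with SCNT higher and 20 with SCNT lower. Some of the 195 were named because they led this test, so the count is raised by the choice; over all named genes 0.83% were higher and 1.03% lower. Values are log2 differences of both differences.

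With SCNT higher, the genes included LOC404105 (1.99), known by locus number only, and the trophoblast gene TKDP1 (1.98). FABP3, a fatty acid-binding protein (1.81), and CA2, a carbonic anhydrase (1.42), were also among them. Metabolic and redox genes were FBP1 (1.58), PRXL2A (1.53) and SULT1A1 (0.845), and secreted or matrix genes CST6 (1.11), FST (1.04), COL6A3 (0.999) and FBN2 (0.697). Respiratory subunits were UQCR11 (0.943), COX7A2 (0.767), ATP5PO (0.675), NDUFAB1 (0.613), NDUFB6 (0.601) and UQCRB (0.561). The mitochondrial ribosomal proteins were MRPL33 (0.553), MRPL55 (0.515), MRPL21 (0.455) and MRPL32 (0.434). PGRMC1 (0.633) and PSMA7 (0.407) completed them.

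With SCNT lower, immune genes were ADAMDEC1 (-2.41), IL6R (-1.23), LAT (-1.19, its other probe near 0), BOLA-DRB3 (-1.04) and BLNK (-0.732). Epithelial and secretory genes were PIGR (-1.26), ST14 (-1.19), BPIFB1 (-1.17), PTI (-1.07), AQP4 (-0.991), CLDN1 (-0.991) and ESRP1 (-0.731). Lipid and prostaglandin genes were HPGD (-1.29), SLC27A6 (-1.18), GM2A (-1.10) and FADS1 (-0.354). GUCY1B1 (-1.42), RALGPS1 (-0.982), PFKFB3 (-0.734) and FOXO3 (-0.51) completed them. For FABP3, CA2, FBP1 and ADAMDEC1, among others, part of the size came from IVF-ET minus AI values of the opposite sign (-0.85, -0.74, -0.443 and 0.655). The same held for PRXL2A (-0.458), SULT1A1 (-0.422), CST6 (-0.42), COL6A3 (-0.336) and PGRMC1 (-0.295).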

How the results depend on the processing

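The count of 0 calls became 148 with the replicate block (the pair as a random block on 4 arrays), 14 over 24 arrays, 213 over 14 arrays, 16 after centring arrays on their medians, 1 after scaling them to one spread, 11 without the probes whose spots were least alike, and 10 with probes averaged per gene. It became 273 with the 2 arrays that had SCNT in Cy5 and 122 with the 2 in Cy3, where a dye effect does not cancel. It stayed at 0 with a robust variance prior and without moderation. The difference from IVF-ET gave 82 to 266 calls with 1 pool pair or animal left out (a lone pool pair is assumed to vary like the animals) and 429 with no correlation between arrays, against 225. The difference between areas gave 0 to 3. Of the 195 named genes, 174 kept their sign in every alternative run on them. A gene with 1 sign on all 4 arrays cannot turn when 1 dye or 1 pool pair is used alone. The leading genes were named by that rule, so this count is partly fixed by the choice. The arrays in Cy5 alone turned S100A9 (-0.186), CD4 (0.0341), MX1 (0.0541), C1QC (0.105), CTSS (0.0384) and RSAD2 (-0.0571), and those in Cy3 alone NR2F1 (-0.0363), CD79A (-0.00178), PTGS2 (-0.104), ISG15 (0.0643), EPB42 (0.0755), CA1 (0.00963), CNN2 (0.00243) and IFNAR2 (0.113). Centring and scaling turned RSAD2 (-0.00373 and -0.00257). With 1 pool pair left out, values ran from -0.645 to 1.41 for PAG9, -0.0756 to 0.446 for SELP, -0.0301 to 0.264 for ALAS2, -0.00912 to 0.210 for CD79A, -0.0148 to 0.0853 for COL3A1, -0.0505 to 0.0842 for PTGS2, -0.0820 to 0.0824 for RSAD2 and -0.0765 to 0.0718 for ISG15. They ran from -0.0438 to 0.0019 for EPB42, -0.151 to 0.0912 for CA1, -0.243 to 0.0268 for PGLYRP1, -0.551 to 0.0269 for OXTR, -1.20 to 0.105 for GNLY and -0.0752 to 1.03 for the trophoblast median. The cause was not tested.

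Precision is limited by 2 pool pairs of unknown size, by ratios without intensities and by an unstated numerator dye.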

Other observations

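Genes of motile cilia, which move fluid over epithelia, were looked at after CCDC65, SPAG6, SPA17 and DYNLRB2 had been seen among the lower genes, so their count is a description only. Of 21 measured genes of such a list, 7 were lower and 2 higher on all 4 arrays (median -0.13, named genes: 11.7% lower, 12.2% higher). CCDC65, an axonemal regulator, had a mean of -0.68, SPAG6, a protein of the central pair, of -0.63, SPA17 of -0.63 and DYNLRB2, a dynein light chain, of -0.58. DNAI2 (-0.39), CFAP298 (-0.27) and HYDIN (-0.18) were lower by less, and TPPP3 (-0.04), CAPS (-0.01) and DRC1 (0.01) were near 0. CCDC65, SPAG6 and DYNLRB2, which prompted the list, passed in the fit over 14 arrays (named genes: 0.929% lower). In intercaruncular SCNT minus AI, CCDC65, SPAG6, SPA17 and DYNLRB2 stood at 0.00, 0.01, -0.02 and 0.04.

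The pool pairs differed most for a small set of genes. Of the 25 named genes with the largest gap between the pairs, 12 are in the trophoblast list and 20 were higher in pool pair 1. The largest gap was that of DNAJC15, a mitochondrial co-chaperone, at 1.83 and 1.64 in pool pair 1 and -2.26 and -1.50 in pool pair 2. IGHG1, an immunoglobulin heavy chain, lay at 1.25, 0.96, -1.16 and -0.76, and CLCN2, a chloride channel, at -0.45, -1.10, 1.15 and 0.61. Their means over both pairs are near 0 and hide opposite values. APOC3 differed between the pairs through 1 array of pool pair 2, at 4.02, with the other 3 between -0.10 and 0.08.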
